A study of Homo sapiens with 24 samples.

Results

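The genes described here encode the enzymes that make cholesterol from acetyl-CoA, the proteins that control the sterol regulatory element binding proteins (SREBPs), and a set of sterol transport, fatty acid and liver X receptor (LXR) target genes tied to the same control. The list named 36 genes. A gene was measured where a probe set of the Affymetrix U133 Plus 2.0 array was annotated to it alone, and where several were, the one with the highest mean log2 signal over the 24 arrays stood for the gene. This left 33 measured genes among 19775 genes with a probe set of their own on the array. CYP51A1 and FADS1 had only probe sets annotated to several genes and no probe set was matched to FDFT1, so these 3 are not analysed here. Of the 33 genes, 32 lay above the median probe set in mean signal, and NPC1L1 lay below it.

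The cells were MV4-11 and MOLM-14, established human acute myeloid leukemia (AML) lines of the monocytic M5 type, grown in serum-containing medium. MV4-11 carries only the internal tandem duplication (ITD) allele of the FLT3 receptor tyrosine kinase, and MOLM-14 carries an ITD allele beside a wild-type FLT3 allele. Each line was exposed for 24 h to DMSO as the vehicle control, to ABT-869 (a small-molecule inhibitor of FLT3 and related receptor tyrosine kinases, 3 nM), to SAHA (vorinostat, a histone deacetylase inhibitor, 6 µM), or to both drugs together. The doses come from the methods of the study, which do not restate them for the combination arrays. Each of the 8 groups of line and treatment held 3 arrays, labelled as biological replicates, so the spread is that between samples of 1 line and not between leukemias. The comparisons ask what the combination did that neither drug did alone, and whether both lines shared it.

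The arrays were on a common scale, with a mean signal between 500.06 and 500.07 after trimming 2% at each end, and their median signal ran from 61.2 to 99.4. The 3' to 5' signal ratio of GAPDH ran from 0.923 to 1.06 and that of ACTB from 1.06 to 1.38, and no arrays were identical. On some arrays the log2 signals spread over 0.3 (SD) around their group means, against 0.235 on the closest array. The farthest such array of each group was taken as standing apart, 4 arrays in all: MV4-11 combination replicate 3 (0.330), MOLM-14 combination replicate 1 (0.323), MV4-11 ABT-869 replicate 2 (0.313) and MOLM-14 DMSO replicate 3 (0.304). MV4-11 combination replicate 2 (0.306) was beyond 0.3 too but stayed in, since replicate 3 of its group was farther. Counts that change without the 4 are given with both values. Of 10 myeloid markers 9 were measured. LYZ, CEBPA and FLT3 had group means of 10816 or more in both lines, CSF3R and SPI1 of 1052 or more, and CD14 (5.27 to 29.3) and ANPEP (12.7 to 33.5) were near the floor of the scale. MPO moved between groups, with means from 761 to 2924 in MV4-11 and from 341 to 2592 in MOLM-14, as did ITGAM (1262 to 2255 and 1042 to 2142), and their part in the results was not tested. The lymphoid markers CD79A (170 to 347), CD3E (55.8 to 116) and CD3D (36.3 to 127), the erythroid AHSP (18.8 to 73.8) and the epithelial KRT8 (108 to 161), EPCAM and KRT19 (both at most 34.8) were low. In these bulk samples, fewer cells with a transcript and less transcript per cell cannot be told apart.

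Cells adjust their cholesterol by transcription. SREBPs are made as precursors in the membrane of the endoplasmic reticulum, where SCAP binds them and senses sterols. When sterols are scarce, SCAP carries the precursor to the Golgi, proteases free its amino-terminal part, and this factor binds sterol regulatory elements, usually beside sites for NF-Y and SP1, in the promoters of nearly every enzyme of the pathway. When sterols are plentiful, INSIG proteins hold SCAP back and these genes fall together. SREBF2 encodes the form that favours cholesterol genes, and SREBF1 encodes forms that favour fatty acid genes. Oxysterols also activate the LXRs, which raise the cholesterol exporters ABCA1 and ABCG1. Signal values below are the deposited linear array intensities, and a difference is a difference of log2 signals. A gene was called changed where the adjusted p of the moderated test in limma, corrected by the Benjamini-Hochberg method over all 54613 probe sets, was under 0.05. Signals of different probe sets are not comparable with each other.

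With the combination in MV4-11, 19 of the 33 genes fell against DMSO and 1 rose. Over all probe sets tested, 4.05% fell and 4.89% rose, and among the genes above the median signal, each by its brightest probe set, 9.01% fell and 11.5% rose. The median difference of the 33 genes was -0.71, with 28 below 0 and 12 more than 2-fold lower, beside a median of -0.02 over all probe sets. In MOLM-14, 15 of the 33 fell with the combination and 0 rose, beside 2.80% and 3.15% of all probe sets and 6.79% and 7.42% of the genes above the median signal. The median difference there was -0.50, beside 0.03 over all probe sets, and 29 of the 33 lay below 0. The genes that fell in both lines numbered 12 and spanned the pathway: ACAT2, HMGCS1, MVK, IDI1, SQLE, MSMO1, SC5D and DHCR7 of the sterol enzymes, STARD4 of the transport genes, and FASN, FADS2 and ACSS2 of the fatty acid genes. They are 12 of the 19 that fell in MV4-11 and 12 of the 15 that fell in MOLM-14.

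Single arrays decided part of these counts. Of the genes changed in MV4-11, 17 of 20 were called whichever of the 6 arrays compared was left out, the exceptions being FDPS, FASN and SCAP. Of the 15 in MOLM-14, 5 were called under every such omission (ACAT2, HMGCS1, MVK, FASN and ACLY), and the count fell to 7, 5, 6 or 7 without DMSO replicate 1, DMSO replicate 2, combination replicate 2 or combination replicate 3. Without the 4 arrays that stood apart, 9 fell in MOLM-14. With the mean of all probe sets of a gene in place of its brightest, the calls of MVK, FASN and FADS2 were lost in MV4-11 and those of MVK, IDI1, SC5D, FASN, ACACA and FADS2 in MOLM-14. In MOLM-14 the other probe sets above the median signal of HMGCS1 (-0.76), SQLE (-0.49 to -0.31), SC5D (-0.41), DHCR7 (-0.48) and ACACA (-0.43) were lower without a call. For MVK, IDI1 and ACLY 1 other probe set each was called lower.

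**Figure D1:**
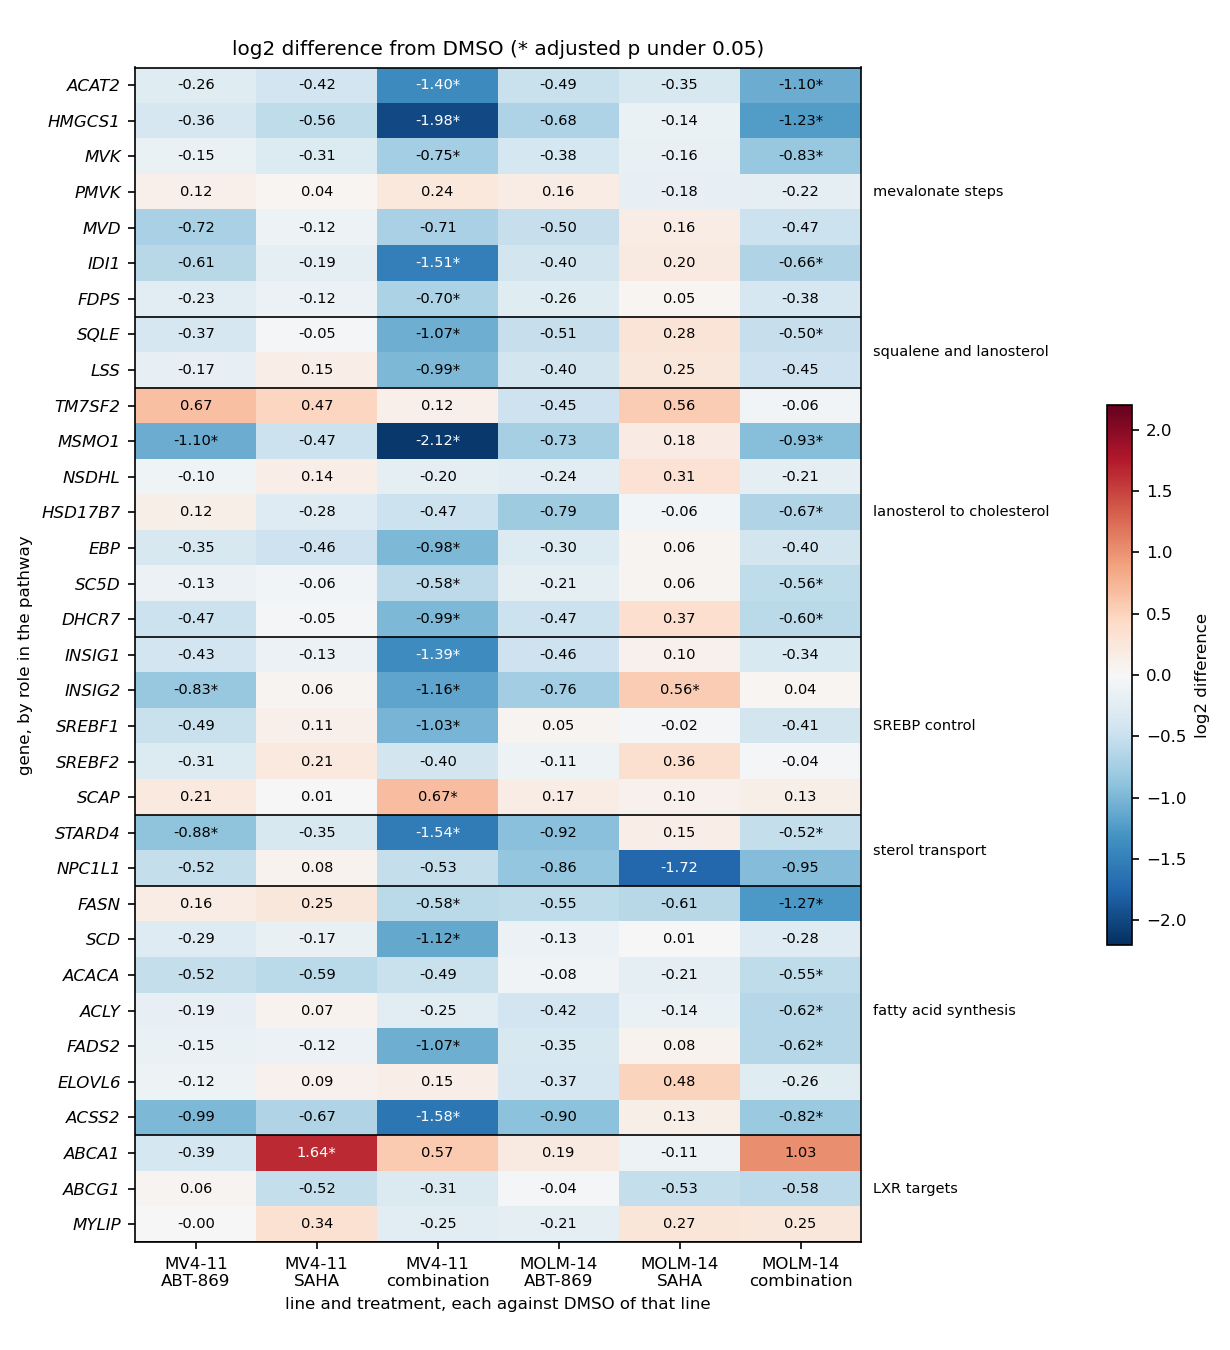
Each cell gives a gene's log2 difference from DMSO of the same line (rows are the 33 genes by role, columns the line and treatment, 3 arrays against 3), blue lower and red higher, with a star where the adjusted p was under 0.05. The MV4-11 combination column holds 19 starred falls and the MOLM-14 combination column 15, while the columns of the single drugs hold 5 stars in all. Of all probe sets, 4.05% fell with the combination in MV4-11 and 2.80% in MOLM-14. With SAHA 0.996% and 2.58% fell, and with ABT-869 0.491% and 0.0146%. An unstarred cell is therefore not an unmoved gene: with ABT-869 in MOLM-14, 22 of 33 genes lay below DMSO without overlap, beside 6.77% of all probe sets.

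The promoter sequence of 3 genes is shown because they had the largest mean falls with the combination over both lines among genes that fell in both and have an entry in the promoter table used (RefSeq, GRCh38.p14, 250 bases upstream of the start, read 5′ to 3′ on the gene's strand). Capitals mark the NF-Y box, CCAAT or its reverse complement ATTGG. The HMGCS1 window lies at chr5:43313413-43313662 on the minus strand, that of MSMO1 at chr4:165327419-165327668 on the plus strand and that of ACSS2 at chr20:34874739-34874988 on the plus strand.
HMGCS1: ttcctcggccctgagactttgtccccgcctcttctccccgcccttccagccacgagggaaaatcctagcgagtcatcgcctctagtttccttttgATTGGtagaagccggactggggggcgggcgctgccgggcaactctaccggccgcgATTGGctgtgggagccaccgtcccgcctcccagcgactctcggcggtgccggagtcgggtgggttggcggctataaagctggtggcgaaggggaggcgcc
MSMO1: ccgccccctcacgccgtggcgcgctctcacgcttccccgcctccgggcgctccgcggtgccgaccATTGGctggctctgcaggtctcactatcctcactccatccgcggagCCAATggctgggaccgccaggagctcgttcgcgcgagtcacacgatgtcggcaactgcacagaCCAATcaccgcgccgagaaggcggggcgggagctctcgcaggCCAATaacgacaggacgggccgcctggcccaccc
ACSS2: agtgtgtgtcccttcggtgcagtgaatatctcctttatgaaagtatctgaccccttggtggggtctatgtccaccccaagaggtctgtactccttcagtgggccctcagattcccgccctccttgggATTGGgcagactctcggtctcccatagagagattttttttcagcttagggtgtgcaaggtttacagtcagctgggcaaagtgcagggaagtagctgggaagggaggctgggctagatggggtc
The HMGCS1 window held 2 NF-Y boxes and 2 SP1 boxes (GGGCGG), that of MSMO1 4 and 2, and that of ACSS2 1 and 1. Of the 36 genes, 31 had a promoter in the table. The 27305 promoters set beside them were all those of the table, not matched to the 31 in gene type or signal. The NF-Y box was in 20 of the 31 (64.5%) against 33% of all 27305 promoters, the SP1 box in 28 (90.3%) against 42.3%, and the E-box CACGTG in 4 (12.9%) against 6.49%. The core of the sterol regulatory element, searched as TCACNCCAC, was in 239 promoters (0.875%) and in 1 of the 31, that of SREBF2. The search took only this pattern in the 250 bases upstream. It would miss variants of the element and sites elsewhere, so a promoter without a match is not shown to lack one. Motifs were sought on both strands, none of the 4 patterns contains another, and a match is a description of these letters, not of a bound site.

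The mevalonate steps build the isoprenoid units from acetyl-CoA. With the combination, 5 of their 7 genes fell in MV4-11 (median -0.75) and 4 in MOLM-14 (median -0.66), and none rose in either line. Among genes above the median signal 9.01% fell and 11.5% rose in MV4-11, and 6.79% and 7.42% in MOLM-14. With 7 genes, the absence of rises was near those shares. HMGCS1, which condenses acetoacetyl-CoA with acetyl-CoA into HMG-CoA, had the largest mean fall of the 33 genes. HMGCS1 (221750_at) in MV4-11 gave signals of 4220.5, 3848 and 3729.8 with DMSO, 2541, 3699 and 3031 with ABT-869, 2798.5, 2652 and 2550.5 with SAHA and 1007.5, 853.5 and 1152 with the combination. HMGCS1 in MOLM-14 gave signals of 7302, 6919.6 and 5533 with DMSO, 3849, 3988 and 4457.5 with ABT-869, 5996, 6549 and 5310.2 with SAHA and 3638, 2409 and 2482 with the combination. The combination arrays lay below every other array of their line in both lines, at 853.5 to 1152 in MV4-11 and 2409 to 3638 in MOLM-14. HMGCS1 differed from DMSO by -1.98 (standard error 0.167, adjusted p = 0.000336) on the log2 scale with the combination in MV4-11 and by -1.23 (standard error 0.187, adjusted p = 0.00791) in MOLM-14, that is 3.94-fold and 2.34-fold lower. The other HMGCS1 probe set above the median signal was at -2.47 with a call in MV4-11 and at -0.76 without a call in MOLM-14. ACAT2, the cytosolic thiolase that makes acetoacetyl-CoA, fell in both lines too. ACAT2 (209608_s_at) in MV4-11 gave signals of 6599, 6906 and 6867 with DMSO, 5395, 6323 and 5363 with ABT-869, 4772, 5247 and 5173 with SAHA and 2528, 2726 and 2458 with the combination. ACAT2 in MOLM-14 gave signals of 10240.2, 10473 and 8459.7 with DMSO, 6969.8, 6717.5 and 7031 with ABT-869, 8174, 7352 and 7216 with SAHA and 5137, 4153 and 4362 with the combination. In both lines the combination arrays were lowest and the DMSO arrays highest, with no overlap between either of them and the single drugs. With the combination, the log2 difference of ACAT2 from DMSO was -1.40 (standard error 0.116, adjusted p = 0.000306) in MV4-11 and -1.10 (standard error 0.129, adjusted p = 0.00399) in MOLM-14.

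MVK phosphorylates mevalonate. MVK (36907_at) in MV4-11 gave signals of 1664, 1796 and 1705 with DMSO, 1617, 1591 and 1449 with ABT-869, 1406.5, 1547 and 1239 with SAHA and 1028, 914 and 1146.5 with the combination. MVK in MOLM-14 gave signals of 1538, 1646 and 1635 with DMSO, 1240.1, 1163.5 and 1289 with ABT-869, 1398, 1449 and 1466 with SAHA and 878, 911 and 923 with the combination. The 4 treatments did not overlap at all in MOLM-14, where SAHA, ABT-869 and the combination stood at successively lower levels, while in MV4-11 the single drugs overlapped each other and the combination arrays were lowest. Against DMSO, MVK on the combination arrays stood at a log2 difference of -0.75 (standard error 0.134, adjusted p = 0.00944) in MV4-11 and -0.83 (standard error 0.0945, adjusted p = 0.00371) in MOLM-14. IDI1 interconverts the isoprenoid units isopentenyl and dimethylallyl diphosphate. IDI1 (208881_x_at) in MV4-11 gave signals of 9235, 9363 and 9834.5 with DMSO, 5741, 6572 and 6341 with ABT-869, 7565.5, 8079 and 9351 with SAHA and 2746, 3690.4 and 3659.8 with the combination. IDI1 in MOLM-14 gave signals of 12915, 12658 and 10599 with DMSO, 8502, 9601 and 9253 with ABT-869, 14536, 13997 and 12783 with SAHA and 8394, 7258 and 7233 with the combination. Again the combination arrays were the lowest of each line, closest to ABT-869 in MOLM-14, where the gap was from 8394 to 8502. The log2 difference between combination and DMSO for IDI1 came to -1.51 (standard error 0.151, adjusted p = 0.000725) in MV4-11 and to -0.66 (standard error 0.125, adjusted p = 0.0173) in MOLM-14. The IDI1 probe set is of a kind that may cross-hybridise, and the gene's 3 other probe sets above the median signal differed from it, with combination differences from -1.67 to 0.66 in MV4-11 and from -0.69 to 0.03 in MOLM-14. Of the other mevalonate genes, FDPS, which makes farnesyl diphosphate, fell in MV4-11 (-0.70, adjusted p = 0.017) and was at -0.38 in MOLM-14 (adjusted p = 0.169). PMVK and MVD, the kinase and decarboxylase that act between MVK and IDI1, passed the test in neither line, with differences of 0.24 and -0.71 in MV4-11 and of -0.22 and -0.47 in MOLM-14.

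SQLE and LSS close the sterol ring system: SQLE oxidises squalene, the first step of the pathway to use oxygen, and LSS folds its product into lanosterol. SQLE (209218_at) in MV4-11 gave signals of 6917, 7302 and 6942 with DMSO, 5438, 5505 and 5475 with ABT-869, 7124, 6725 and 6589.5 with SAHA and 3351, 3842 and 2961 with the combination. SQLE in MOLM-14 gave signals of 7943, 7705 and 7814 with DMSO, 5280.1, 5666 and 5526 with ABT-869, 8808, 10355 and 9371 with SAHA and 5633, 5566 and 5369 with the combination. In MV4-11 the combination arrays were below those of ABT-869, which were below those of SAHA and DMSO, whereas in MOLM-14 the combination overlapped ABT-869 and the SAHA arrays lay above DMSO. SQLE differed from DMSO by -1.07 (standard error 0.122, adjusted p = 0.0013) on the log2 scale with the combination in MV4-11 and by -0.50 (standard error 0.0999, adjusted p = 0.0208) in MOLM-14. LSS (202245_at) in MV4-11 gave signals of 4177, 4211 and 4133 with DMSO, 3858.5, 3856 and 3407 with ABT-869, 4432.5, 4898 and 4528 with SAHA and 1965, 2047.5 and 2303 with the combination. LSS in MOLM-14 gave signals of 5022, 5301 and 4090.3 with DMSO, 3444, 3973 and 3439.8 with ABT-869, 5810.1, 5637 and 5573 with SAHA and 3917, 3547 and 3093 with the combination. SAHA alone gave LSS signals above every DMSO array in both lines, 4432.5 to 4898 in MV4-11 and 5573 to 5810.1 in MOLM-14, without a call (0.15, adjusted p = 0.615 and 0.25, adjusted p = 0.36). With the combination LSS had its lowest signals of MV4-11, and in MOLM-14 the combination overlapped ABT-869. With the combination, the log2 difference of LSS from DMSO was -0.99 (standard error 0.116, adjusted p = 0.00144) in MV4-11 and -0.45 (standard error 0.139, adjusted p = 0.106) in MOLM-14.

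From lanosterol to cholesterol, 4 of 7 genes fell with the combination in MV4-11 and 4 in MOLM-14, beside 9.01% and 6.79% of the genes above the median signal. None rose, which for 7 genes was near the shares that rose, 11.5% and 7.42%. MSMO1 removes methyl groups from the sterol ring. MSMO1 (209146_at) in MV4-11 gave signals of 8980.1, 9481 and 9651 with DMSO, 3778.5, 5174 and 4296 with ABT-869, 5808, 7192.5 and 7382 with SAHA and 1946, 2282 and 2274 with the combination. MSMO1 in MOLM-14 gave signals of 6772, 8031 and 6816 with DMSO, 3913, 4140.4 and 5011 with ABT-869, 8107, 8722 and 7631 with SAHA and 4492, 2994 and 3975 with the combination. The MV4-11 arrays formed 4 separate steps, from DMSO through SAHA and ABT-869 down to the combination, but in MOLM-14 the combination overlapped ABT-869 and SAHA overlapped DMSO. Against DMSO, MSMO1 on the combination arrays stood at a log2 difference of -2.12 (standard error 0.156, adjusted p = 0.000215) in MV4-11 and -0.93 (standard error 0.172, adjusted p = 0.0159) in MOLM-14, that is 4.33-fold and 1.91-fold lower. DHCR7 carries out the last step to cholesterol. DHCR7 (201790_s_at) in MV4-11 gave signals of 3019, 3124 and 3092.5 with DMSO, 2152, 2342 and 2178 with ABT-869, 3069.5, 3026.5 and 2844 with SAHA and 1425, 1467 and 1782 with the combination. DHCR7 in MOLM-14 gave signals of 3283, 2945 and 2772 with DMSO, 2049.9, 2175 and 2279.5 with ABT-869, 3641, 4072 and 3897.5 with SAHA and 1853, 2027 and 2056 with the combination. Its combination arrays were the lowest of MV4-11, and in MOLM-14 they overlapped ABT-869 by a small margin while SAHA alone lay above DMSO. The log2 difference between combination and DMSO for DHCR7 came to -0.99 (standard error 0.121, adjusted p = 0.00175) in MV4-11 and to -0.60 (standard error 0.111, adjusted p = 0.0161) in MOLM-14.

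EBP is the isomerase that shifts the ring double bond. EBP (213787_s_at) in MV4-11 gave signals of 1310.0, 1291 and 1318 with DMSO, 1081, 1000.2 and 998 with ABT-869, 883, 974 and 989 with SAHA and 670.5, 591 and 729.9 with the combination. EBP in MOLM-14 gave signals of 1419, 1598 and 1472 with DMSO, 937, 1282.5 and 1501 with ABT-869, 1617, 1505 and 1567 with SAHA and 1219, 1061.5 and 1116 with the combination. The combination gave the lowest EBP signals of MV4-11, and its arrays lay inside the range of ABT-869 in MOLM-14. EBP differed from DMSO by -0.98 (standard error 0.119, adjusted p = 0.00169) on the log2 scale with the combination in MV4-11 and by -0.40 (standard error 0.166, adjusted p = 0.225) in MOLM-14. SC5D, the desaturase before DHCR7, was lowest with the combination in both lines. SC5D (211423_s_at) in MV4-11 gave signals of 2052, 2378 and 2349.6 with DMSO, 2022, 2173 and 1975 with ABT-869, 2139.7, 2182 and 2161 with SAHA and 1486, 1511.5 and 1520.2 with the combination. SC5D in MOLM-14 gave signals of 3474, 3429.8 and 3267 with DMSO, 2730.3, 2896 and 3189 with ABT-869, 3469, 3572 and 3559.5 with SAHA and 2383.5, 2178 and 2358 with the combination. In MV4-11 the single drugs overlapped DMSO and only the 3 combination arrays stood below. With the combination, the log2 difference of SC5D from DMSO was -0.58 (standard error 0.108, adjusted p = 0.0112) in MV4-11 and -0.56 (standard error 0.102, adjusted p = 0.0152) in MOLM-14. TM7SF2, a sterol reductase, was not called with the combination in either line. TM7SF2 (210130_s_at) in MV4-11 gave signals of 124, 227 and 229 with DMSO, 259.5, 344 and 291 with ABT-869, 242, 315 and 224 with SAHA and 179, 189.5 and 243 with the combination. TM7SF2 in MOLM-14 gave signals of 431, 558 and 495 with DMSO, 318, 361 and 403 with ABT-869, 668, 723 and 790.3 with SAHA and 467.5, 428 and 529 with the combination. All MOLM-14 DMSO arrays lay above all MV4-11 DMSO arrays, and in both lines the combination overlapped DMSO (0.12 and -0.06). HSD17B7, a sterol ketone reductase, fell in MOLM-14 (-0.67, adjusted p = 0.0421) and stood at -0.47, adjusted p = 0.173 in MV4-11. Its only probe set is, like that of IDI1, of a kind that may cross-hybridise. NSDHL, which acts with MSMO1, was at -0.20 and -0.21 without a call.

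**Figure D2:**
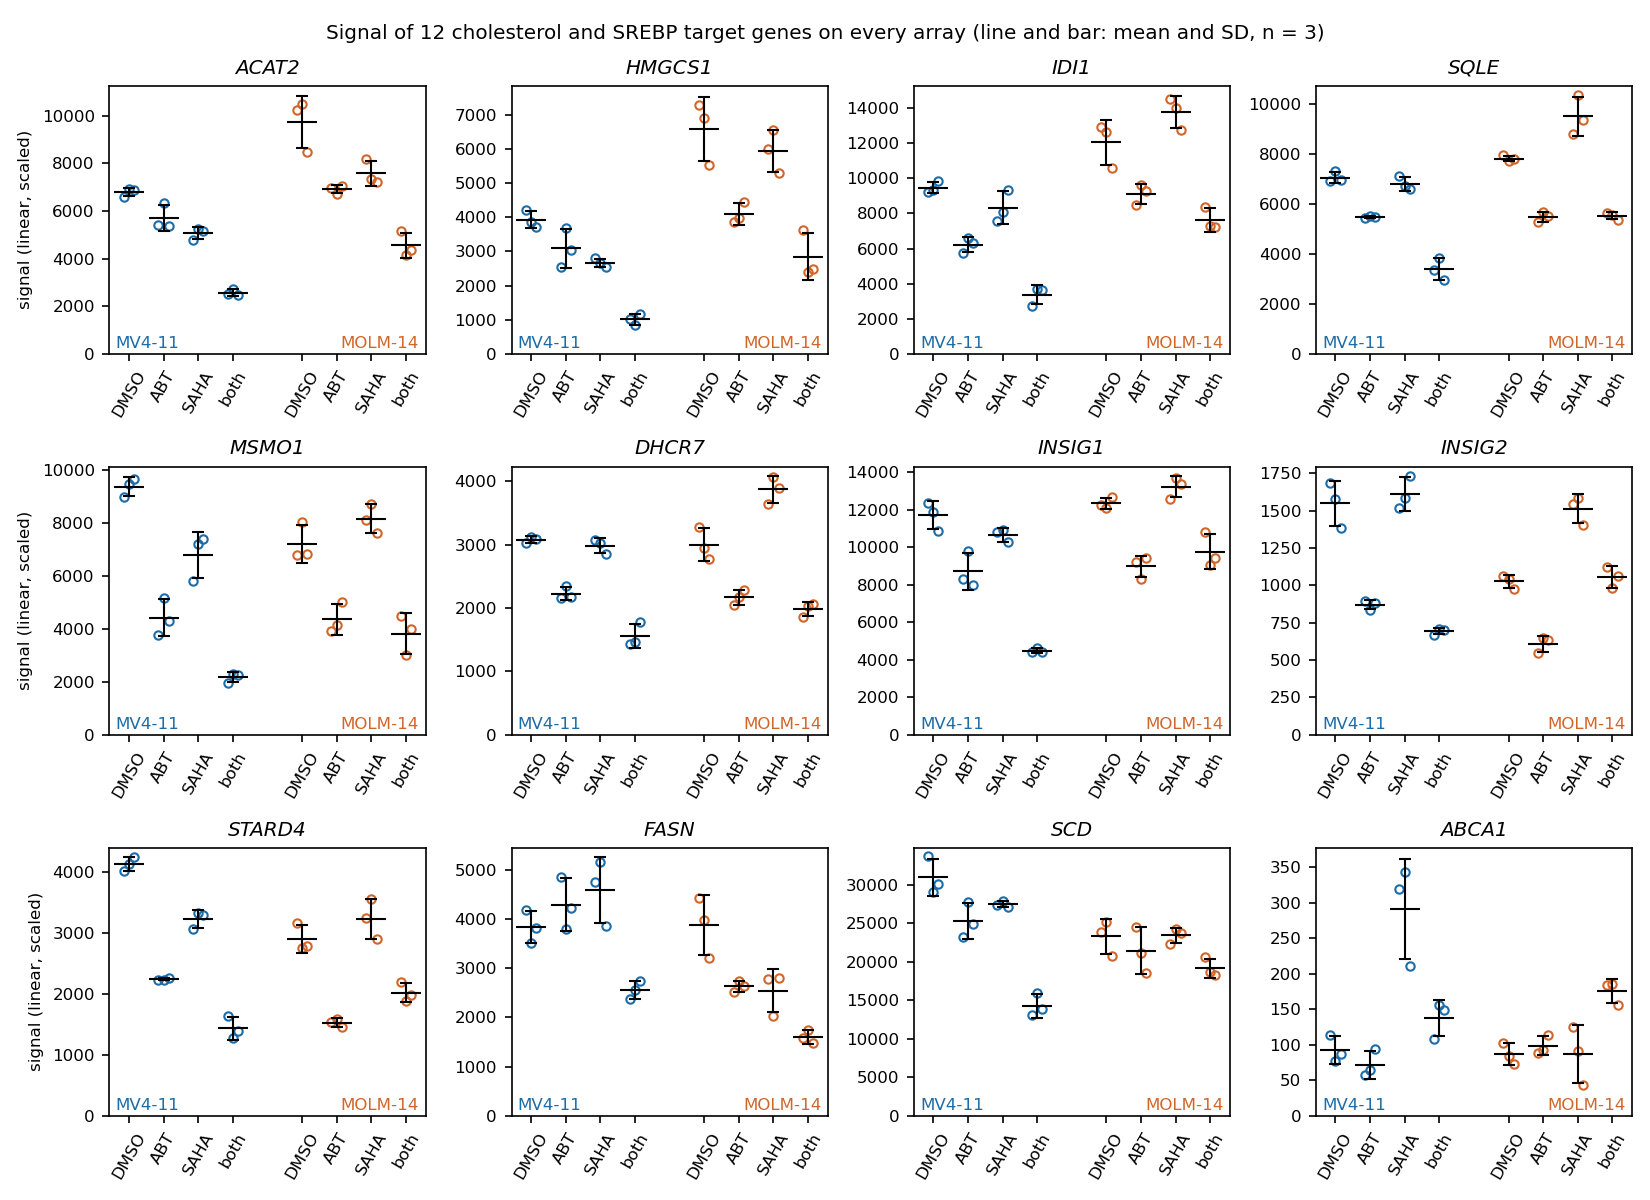
Linear signal of 12 genes on every array (open circles), with the mean and SD of the 3 arrays of each group, MV4-11 in blue and MOLM-14 in orange, and the combination written as both. The 3 MV4-11 combination arrays are the lowest of that line for each gene shown but ABCA1, and for INSIG2 the MOLM-14 combination arrays (979.8 to 1125.5) overlap DMSO (977 to 1063.5).

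Of the 5 genes of SREBP and its control, 3 fell with the combination and 1 rose in MV4-11, and none passed the test in MOLM-14. INSIG1 and INSIG2 encode the anchors that hold SCAP in the endoplasmic reticulum, and INSIG1 is itself a strong SREBP target. INSIG1 (201626_at) in MV4-11 gave signals of 12346.5, 11877.5 and 10869.7 with DMSO, 8309, 9819 and 8002 with ABT-869, 10801, 10937.5 and 10251 with SAHA and 4405, 4619.6 and 4393 with the combination. INSIG1 in MOLM-14 gave signals of 12232, 12094 and 12656 with DMSO, 9201, 8321.5 and 9405.5 with ABT-869, 12588, 13699 and 13388 with SAHA and 10799, 9060.0 and 9427 with the combination. In MV4-11 the combination arrays lay at 4393 to 4619.6, below the lowest ABT-869 array at 8002, and in MOLM-14 they overlapped ABT-869 and stayed under DMSO. Against DMSO, INSIG1 on the combination arrays stood at a log2 difference of -1.39 (standard error 0.12, adjusted p = 0.00038) in MV4-11 and -0.34 (standard error 0.109, adjusted p = 0.116) in MOLM-14. INSIG2 (209566_at) in MV4-11 gave signals of 1682, 1581 and 1384 with DMSO, 894, 836 and 884 with ABT-869, 1515, 1587 and 1733 with SAHA and 669.5, 708 and 698 with the combination. INSIG2 in MOLM-14 gave signals of 1063.5, 1040.4 and 977 with DMSO, 546, 646 and 633 with ABT-869, 1548, 1588 and 1404 with SAHA and 1125.5, 979.8 and 1064.5 with the combination. INSIG2 was lowest with the combination in MV4-11 and lowest with ABT-869 in MOLM-14, where SAHA gave the highest signals and the combination overlapped DMSO. The log2 difference between combination and DMSO for INSIG2 came to -1.16 (standard error 0.118, adjusted p = 0.000795) in MV4-11 and to 0.04 (standard error 0.115, adjusted p = 0.912) in MOLM-14.

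SREBF1, a precursor gene that is also a target of SREBP and LXR, fell in MV4-11. SREBF1 (202308_at) in MV4-11 gave signals of 2903, 2896 and 2746 with DMSO, 1870.2, 2162 and 2079 with ABT-869, 3012, 2845 and 3384 with SAHA and 1219, 1388.5 and 1607 with the combination. SREBF1 in MOLM-14 gave signals of 2229, 1840.4 and 1449 with DMSO, 2111, 2071 and 1519 with ABT-869, 1518, 1933 and 1951 with SAHA and 1264, 1466 and 1374 with the combination. Its MV4-11 combination arrays were the lowest of the line, followed by ABT-869, and in MOLM-14 they lay below the single-drug arrays and overlapped DMSO. SREBF1 differed from DMSO by -1.03 (standard error 0.138, adjusted p = 0.00255) on the log2 scale with the combination in MV4-11 and by -0.41 (standard error 0.198, adjusted p = 0.315) in MOLM-14. SREBF2 (201247_at) in MV4-11 gave signals of 2634, 2318.5 and 2639.7 with DMSO, 2023, 1985 and 2126 with ABT-869, 2966, 2899 and 2892 with SAHA and 2007, 1704.5 and 2037 with the combination. SREBF2 in MOLM-14 gave signals of 2472, 2043.5 and 2181 with DMSO, 1827.5, 2427 and 1989.7 with ABT-869, 2686, 3132.5 and 2755 with SAHA and 1770.5, 2336 and 2458 with the combination. SREBF2, the precursor gene of the cholesterol arm, was not called in either line, and SAHA alone gave signals above DMSO in both. With the combination, the log2 difference of SREBF2 from DMSO was -0.40 (standard error 0.118, adjusted p = 0.068) in MV4-11 and -0.04 (standard error 0.167, adjusted p = 0.945) in MOLM-14. SCAP, the sterol sensor, was the gene that rose. SCAP (212329_at) in MV4-11 gave signals of 1096, 1294 and 985 with DMSO, 1214, 1359 and 1312 with ABT-869, 1249.5, 1141 and 1000.4 with SAHA and 1626, 1765 and 1964 with the combination. SCAP in MOLM-14 gave signals of 1185, 1352 and 1215 with DMSO, 1598, 1431 and 1216 with ABT-869, 1266, 1369 and 1374 with SAHA and 1418, 1330.2 and 1348 with the combination. In MV4-11 the combination arrays (1626 to 1964) lay above all others, and in MOLM-14 the treatments overlapped. Against DMSO, SCAP on the combination arrays stood at a log2 difference of 0.67 (standard error 0.148, adjusted p = 0.0234) in MV4-11 and 0.13 (standard error 0.124, adjusted p = 0.672) in MOLM-14.

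STARD4 carries cholesterol between membranes and is an SREBP target. STARD4 (226390_at) in MV4-11 gave signals of 4021, 4135 and 4246 with DMSO, 2233, 2225 and 2263 with ABT-869, 3069, 3336.5 and 3303 with SAHA and 1635, 1269 and 1396 with the combination. STARD4 in MOLM-14 gave signals of 3166, 2757 and 2791 with DMSO, 1539, 1593 and 1456 with ABT-869, 3246, 3561 and 2896 with SAHA and 2194, 1881 and 1990.3 with the combination. The MV4-11 arrays fell into 4 separate steps, in the order DMSO, SAHA, ABT-869 and combination. In MOLM-14 ABT-869 alone was lowest, the combination lay between ABT-869 and DMSO, and SAHA overlapped DMSO. The log2 difference between combination and DMSO for STARD4 came to -1.54 (standard error 0.121, adjusted p = 0.000276) in MV4-11 and to -0.52 (standard error 0.122, adjusted p = 0.0381) in MOLM-14. NPC1L1, the intestinal sterol uptake protein, was dim, with group means from 29.0 to 85.6, and was called in no comparison between treatments.

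The fatty acid genes, controlled mainly by the SREBF1 products, fell at 4 of 7 in MV4-11 (median -0.58) and at 5 of 7 in MOLM-14 (median -0.62). Beside them, 9.01% and 6.79% of the genes above the median signal fell. ACSS2 makes acetyl-CoA from acetate in the cytosol. ACSS2 (234312_s_at) in MV4-11 gave signals of 1824, 1887 and 1756 with DMSO, 763, 1112 and 911.5 with ABT-869, 1021, 1269 and 1161 with SAHA and 578, 488 and 796 with the combination. ACSS2 in MOLM-14 gave signals of 1606, 1649.9 and 1441 with DMSO, 712, 850.1 and 970.4 with ABT-869, 1932, 1701 and 1531 with SAHA and 1033, 842 and 800.3 with the combination. In both lines the combination overlapped ABT-869, and the DMSO arrays of MV4-11 lay above all treated ones. ACSS2 differed from DMSO by -1.58 (standard error 0.204, adjusted p = 0.00222) on the log2 scale with the combination in MV4-11 and by -0.82 (standard error 0.16, adjusted p = 0.0196) in MOLM-14. FASN, the fatty acid synthase, fell in both lines. FASN (212218_s_at) in MV4-11 gave signals of 4179, 3518 and 3824 with DMSO, 4860.3, 3793 and 4219.6 with ABT-869, 4757, 5151.5 and 3855 with SAHA and 2381, 2548 and 2748 with the combination. FASN in MOLM-14 gave signals of 4435, 3988 and 3216 with DMSO, 2509, 2738 and 2636 with ABT-869, 2787, 2033 and 2797 with SAHA and 1578, 1748 and 1475 with the combination. The combination arrays were the lowest of each line, whereas the single drugs overlapped DMSO in MV4-11 and stood below it in MOLM-14. With the combination, the log2 difference of FASN from DMSO was -0.58 (standard error 0.155, adjusted p = 0.0475) in MV4-11 and -1.27 (standard error 0.168, adjusted p = 0.00544) in MOLM-14. Averaged over all probe sets of the gene, dim ones included, FASN was at 0.24 in MOLM-14. FADS2, a desaturase of polyunsaturated fatty acids, was lower in both. FADS2 (202218_s_at) in MV4-11 gave signals of 1745, 1913 and 1386 with DMSO, 1449.5, 1519 and 1541 with ABT-869, 1564, 1714 and 1336 with SAHA and 664, 774 and 969.8 with the combination. FADS2 in MOLM-14 gave signals of 1345, 1495 and 1564 with DMSO, 1005.5, 1291 and 1177 with ABT-869, 1507, 1553 and 1584.5 with SAHA and 908, 1017.5 and 939 with the combination. The combination arrays were lowest in MV4-11 and overlapped ABT-869 in MOLM-14. Against DMSO, FADS2 on the combination arrays stood at a log2 difference of -1.07 (standard error 0.182, adjusted p = 0.00736) in MV4-11 and -0.62 (standard error 0.123, adjusted p = 0.0208) in MOLM-14. The mean of its 2 probe sets, the other of them below the median signal, differed by -0.23 in MV4-11 (adjusted p = 0.834) and by -0.18 in MOLM-14 (adjusted p = 0.564).

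SCD introduces the double bond of oleate. SCD (200832_s_at) in MV4-11 gave signals of 33742, 29081 and 30072 with DMSO, 23256, 27757 and 24912 with ABT-869, 27449, 27925 and 27167 with SAHA and 13041, 15970.4 and 13813 with the combination. SCD in MOLM-14 gave signals of 23908, 25228 and 20752 with DMSO, 24572, 21194.5 and 18489 with ABT-869, 22351, 24229.6 and 23702 with SAHA and 20579, 18633 and 18281 with the combination. The 3 MV4-11 combination arrays lay below all others of that line, while in MOLM-14 they overlapped ABT-869. The log2 difference between combination and DMSO for SCD came to -1.12 (standard error 0.128, adjusted p = 0.00134) in MV4-11 and to -0.28 (standard error 0.135, adjusted p = 0.313) in MOLM-14. ACACA, the acetyl-CoA carboxylase, showed another order. ACACA (212186_at) in MV4-11 gave signals of 1653.5, 1733 and 1859 with DMSO, 1413, 1334 and 952 with ABT-869, 1155, 1085 and 1249 with SAHA and 1063, 1215.5 and 1492 with the combination. ACACA in MOLM-14 gave signals of 1457, 1353 and 1353 with DMSO, 1380.0, 1421 and 1146 with ABT-869, 1292, 1194 and 1118 with SAHA and 901, 1016 and 924 with the combination. In MV4-11 every treatment lay below DMSO and the combination overlapped both single drugs, and in MOLM-14 the combination arrays were lowest. ACACA differed from DMSO by -0.49 (standard error 0.184, adjusted p = 0.146) on the log2 scale with the combination in MV4-11 and by -0.55 (standard error 0.122, adjusted p = 0.0308) in MOLM-14. ACLY makes cytosolic acetyl-CoA from citrate. ACLY (201128_s_at) in MV4-11 gave signals of 8175, 8737.5 and 8365 with DMSO, 7340.3, 7002 and 7853 with ABT-869, 9441, 9231 and 7970.1 with SAHA and 6547, 7445 and 7359.5 with the combination. ACLY in MOLM-14 gave signals of 11777, 11254 and 10453 with DMSO, 8365, 8216 and 8409 with ABT-869, 9664, 10342 and 10377 with SAHA and 6975, 7329 and 7394.5 with the combination. In MOLM-14 the treatments formed 4 steps without overlap, and in MV4-11 the combination overlapped ABT-869. With the combination, the log2 difference of ACLY from DMSO was -0.25 (standard error 0.12, adjusted p = 0.267) in MV4-11 and -0.62 (standard error 0.0962, adjusted p = 0.00829) in MOLM-14. ELOVL6, an elongase of saturated fatty acids, was not called with any treatment. ELOVL6 (204256_at) in MV4-11 gave signals of 285, 223 and 186 with DMSO, 218, 222 and 191 with ABT-869, 239, 262 and 227 with SAHA and 258, 217 and 286 with the combination. ELOVL6 in MOLM-14 gave signals of 384, 346 and 405 with DMSO, 291, 281.5 and 303.5 with ABT-869, 634, 541 and 428 with SAHA and 283, 282 and 391 with the combination. Its DMSO arrays were higher in MOLM-14 (346 to 405) than in MV4-11 (186 to 285).

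None of the 3 LXR targets was called with the combination in either line. Among genes above the median signal 9.01% fell and 11.5% rose in MV4-11, and 6.79% and 7.42% in MOLM-14. No call among 3 genes was near those shares, so the values that follow describe single genes. ABCA1, the transporter that loads cholesterol onto apolipoprotein, was dim. ABCA1 (203505_at) in MV4-11 gave signals of 114, 76.8 and 87.2 with DMSO, 56.8, 64.3 and 93.5 with ABT-869, 319, 343 and 211 with SAHA and 109, 156 and 149 with the combination. ABCA1 in MOLM-14 gave signals of 103, 84.4 and 72.8 with DMSO, 89.1, 93.3 and 114 with ABT-869, 126, 91.0 and 43.7 with SAHA and 184, 186 and 156 with the combination. SAHA alone gave the highest ABCA1 signals of MV4-11, 211 to 343 against 76.8 to 114 with DMSO, and the difference passed the test (1.64, adjusted p = 0.0177). The 1 other ABCA1 probe set above the median signal was at 0.72 without a call. The mean of all ABCA1 probe sets, dim ones included, differed by -0.19. In MOLM-14 the combination arrays were the highest, at 156 to 186, without passing the test (1.03, adjusted p = 0.123). ABCG1 (211113_s_at) in MV4-11 gave signals of 91.6, 143 and 111 with DMSO, 111, 121 and 122 with ABT-869, 61.9, 73.4 and 109 with SAHA and 66.4, 105 and 109 with the combination. ABCG1 in MOLM-14 gave signals of 47.5, 128 and 101 with DMSO, 66.4, 60.6 and 142 with ABT-869, 43.5, 69.1 and 68.9 with SAHA and 48.0, 50.4 and 77.1 with the combination. ABCG1, a partner exporter, overlapped between treatments, and its combination differences were -0.31 and -0.58. MYLIP is a ubiquitin ligase that LXR induces against lipoprotein uptake. MYLIP (228098_s_at) in MV4-11 gave signals of 8736, 7823 and 8256 with DMSO, 7821, 8713 and 8230.2 with ABT-869, 9303, 11177 and 10950.1 with SAHA and 7103, 6989 and 6799 with the combination. MYLIP in MOLM-14 gave signals of 5495, 5560.1 and 5292 with DMSO, 4522, 4824 and 4776 with ABT-869, 6252, 7274 and 6242 with SAHA and 6966, 6001 and 6544 with the combination. The SAHA arrays lay above the DMSO arrays in both lines, and the combination lay below DMSO in MV4-11 and above it in MOLM-14. Against DMSO, MYLIP on the combination arrays stood at a log2 difference of -0.25 (standard error 0.118, adjusted p = 0.255) in MV4-11 and 0.25 (standard error 0.109, adjusted p = 0.248) in MOLM-14.

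Single drugs moved few of these genes past the test. ABT-869 alone lowered 3 in MV4-11: MSMO1 (-1.10, adjusted p = 0.0179), STARD4 (-0.88, adjusted p = 0.0146) and INSIG2 (-0.83, adjusted p = 0.0181). Over all probe sets 0.491% fell and 0.372% rose, and of the genes above the median signal 1.21% and 0.778%. No call of the 3 was kept under every omission of an array, and the count then ran from 0 to 2. Of the 33, 27 lay below 0 (median -0.29), and 18 had all ABT-869 arrays below all DMSO arrays, beside 9.29% of all probe sets and 17.3% of the genes above the median signal. In MOLM-14 limma called 0 of the 33 with ABT-869, and 0.0146% of all probe sets fell and 0.00183% rose. There 18 were lower and 0 higher at an unadjusted p under 0.05 (4% and 3.27% of all probe sets, 5.60% and 3.18% of the genes above the median signal), the median was -0.40, and 22 of 33 did not overlap DMSO and were lower, beside 6.77% of all probe sets and 10.1% of the genes above the median signal. STARD4 (-0.92) and ACSS2 (-0.90) had the lowest values with ABT-869 in MOLM-14.

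SAHA alone called 1 gene in MV4-11, ABCA1, with 0.996% of all probe sets lower and 1.47% higher (2.29% and 3.96% of the genes above the median signal), and the median of the 33 was -0.06. In MOLM-14 it called 1 gene, INSIG2 (0.56, adjusted p = 0.0272), with 2.58% of all probe sets lower and 2.74% higher (5.52% and 6.67% of the genes above the median signal). Neither call was kept under every omission of an array. In MOLM-14 12 of the 33 lay below 0 with SAHA and the median was 0.08, beside -0.14 over all probe sets, and centring the arrays on their medians moved all probe sets up by 0.25 and called 7 of the 33 higher. SQLE (0.28), DHCR7 (0.37) and LSS (0.25) had SAHA arrays above all DMSO arrays in MOLM-14, where 9 of 33 did so, beside 11.9% of all probe sets and 24.7% of the genes above the median signal, so this count was near its background.

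Against ABT-869 alone, the combination was lower for 14 of the 33 genes in MV4-11 and higher for 0, beside 1.81% and 1.89% of all probe sets and 4.48% and 5.06% of the genes above the median signal. Against SAHA alone it was lower for 12 and higher for 0, beside 0.566% and 0.183% of all probe sets and 1.60% and 0.351% of the genes above the median signal. Lower than both single drugs were 10 genes: ACAT2, HMGCS1, IDI1, SQLE, LSS, MSMO1, DHCR7, INSIG1, STARD4 and SCD. Both comparisons share the combination arrays. HMGCS1 differed by -1.62 (standard error 0.167, adjusted p = 0.00238) from ABT-869 and by -1.42 (standard error 0.167, adjusted p = 0.00953) from SAHA, LSS by -0.82, adjusted p = 0.0079 and -1.14, adjusted p = 0.0056, and INSIG1 by -0.96, adjusted p = 0.0048 and -1.25, adjusted p = 0.00506. MSMO1 was at -1.02, adjusted p = 0.0107 against ABT-869 and -1.64, adjusted p = 0.00506 against SAHA. MVK, EBP, FASN and FADS2 passed against ABT-869 and not against SAHA, and INSIG2 and SREBF1 passed against SAHA and not against ABT-869. These splits depended on the processing. With signals under 32 raised to 32, MVK, EBP, FASN and FADS2 passed against SAHA, and INSIG2 and SREBF1 passed against ABT-869. A difference between the single drugs was not tested. The count against ABT-869 moved with single arrays, to 7, 7, 6, 8 and 8 without ABT-869 replicates 1, 2 and 3 or combination replicates 1 and 2, was 4 without the 4 arrays that stood apart, and was 4 with arrays centred on their medians, which moved all probe sets up by 0.16. ACAT2, HMGCS1, LSS, MSMO1, INSIG1 and SCD passed under every omission of an array. Against SAHA, 6 of 12 did so (IDI1, LSS, MSMO1, INSIG1, INSIG2 and STARD4), and 7 were called without SAHA replicate 2.

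In MOLM-14 the combination against ABT-869 was lower for 4 genes, ACAT2 (-0.61, adjusted p = 0.0221), MVK (-0.44, adjusted p = 0.0221), FASN (-0.72, adjusted p = 0.0322) and ACACA (-0.47, adjusted p = 0.0469), and higher for 2, INSIG2 (0.80, adjusted p = 0.00429) and MYLIP (0.46, adjusted p = 0.0325), beside 3.54% lower and 4.48% higher of all probe sets, and 8.72% and 10.3% of the genes above the median signal. Both counts were near the share of the genes above the median signal, so the values describe single genes. The median of the 33 was -0.11. INSIG2 alone kept its call under every omission of an array, and the counts then ran from 1 to 3. As means of all their probe sets, MVK and FASN differed by 0.18 and 1.11. Against SAHA limma called 0 of the 33 in MOLM-14, with 0.00549% of all probe sets lower and 0.00916% higher. At an unadjusted p under 0.05, 25 were lower and 1 higher (2.62% and 7.03% of all probe sets, 4.56% and 3.86% of the genes above the median signal), the median was -0.60, and 27 of 33 had all combination arrays below all SAHA arrays, beside 5.84% of all probe sets and 11.7% of the genes above the median signal. Centring on the medians, which moved all probe sets down by 0.30 in this comparison, called 11 of the 33, and fitting all 24 arrays together called 13.

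A departure from additivity, the combination difference minus the sum of both single-drug differences on the log2 scale, was called by limma for 0 of the 33 genes in either line, beside 0.00732% of all probe sets lower and 0.0146% higher in MV4-11 and 0.00183% and 0.0110% in MOLM-14. At an unadjusted p under 0.05, 16 of the 33 were below additive and 1 above in MV4-11 (4.35% and 3.91% of all probe sets, 6.66% and 5.93% of the genes above the median signal), and 3 and 0 in MOLM-14 (1.89% and 5.54%, and 2.07% and 3.55%). The medians were -0.39 and -0.17. In MV4-11 HMGCS1 was -1.06 (95% interval -1.59 to -0.52), FASN -0.99 (-1.48 to -0.50), LSS -0.96 (-1.33 to -0.59) and INSIG1 -0.82 (-1.21 to -0.44), with adjusted p = 0.115 for LSS. ACACA lay on the other side of 0, at 0.62 (0.04 to 1.21). These intervals are those of single genes, not adjusted for the number of probe sets tested, and none of these genes was called. With signals under 32 raised to 32, 6 of the 33 were called in MV4-11.

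**Figure D3:**
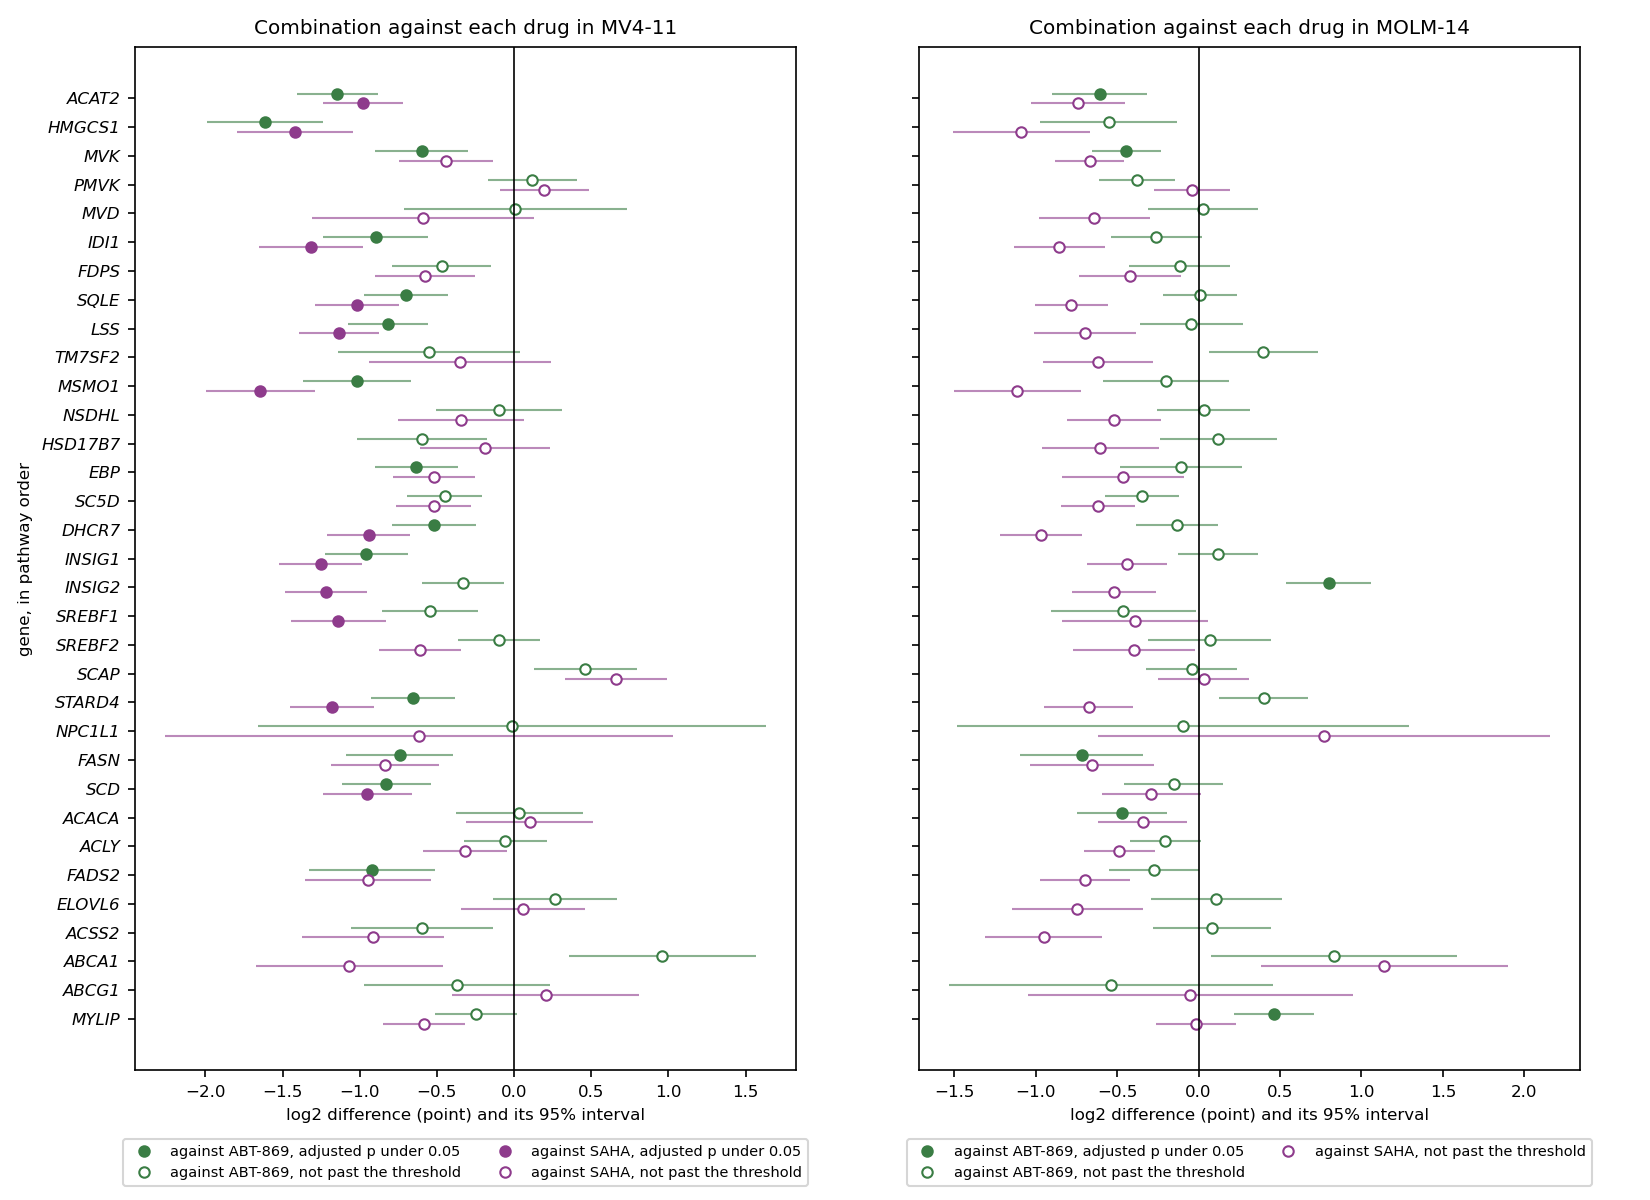
Log2 difference of the combination from ABT-869 (green) and from SAHA (purple) for each of the 33 genes, with 95% intervals, MV4-11 on the left and MOLM-14 on the right. Filled points have an adjusted p under 0.05. In MV4-11 these are 14 genes against ABT-869 and 12 against SAHA, all lower, beside 1.81% and 0.566% of all probe sets. In MOLM-14, 4 are lower and 2 higher against ABT-869, beside 3.54% and 4.48%. Against SAHA 0 are filled there, beside 0.00549% lower and 0.00916% higher. Yet 27 of the 33 had all combination arrays below all SAHA arrays in MOLM-14, beside 5.84% of all probe sets.

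The response to the combination itself differed between the lines for 8 genes, each higher in MOLM-14, that is less lowered or turned upward. The share of all probe sets with such a difference was 3.14% higher and 3.41% lower, and among genes above the median signal 7.74% and 9.18%. INSIG2 differed by 1.20 (standard error 0.145, adjusted p = 9.27e-05), MSMO1 by 1.18 (standard error 0.223, adjusted p = 0.00306), INSIG1 by 1.04 (standard error 0.141, adjusted p = 0.000223) and STARD4 by 1.01 (standard error 0.153, adjusted p = 0.000553). IDI1 (0.85, adjusted p = 0.00747), SCD (0.84, adjusted p = 0.00506), SQLE (0.56, adjusted p = 0.0159) and MYLIP (0.50, adjusted p = 0.039) completed the set. The IDI1 difference was shared in sign by 1 of its 3 other probe sets above the median signal and that of MYLIP by 3 of 4. The median over the 33 genes was 0.36. HMGCS1 differed by 0.75 (standard error 0.243, adjusted p = 0.0804) and LSS by 0.54 (standard error 0.164, adjusted p = 0.0577), neither past the test. FASN and SCAP lay farthest below 0, at -0.68 (95% interval -1.14 to -0.22) and -0.54 (-0.92 to -0.17), without passing the test. Leaving out single arrays kept 7 of the 8, all but MYLIP, and 5 were called without the 4 arrays that stood apart and 4 with centred arrays.

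The responses to single drugs did not pass a test of difference between the lines for any of the 33 genes in limma, beside 0.157% lower and 0.194% higher of all probe sets for ABT-869 and 0.630% and 0.599% for SAHA. At an unadjusted p under 0.05, 3 were lower and 1 higher in MOLM-14 for ABT-869 (6.08% and 4.15% of all probe sets, 8.31% and 7.04% of the genes above the median signal), and 2 and 8 for SAHA (6.82% and 4.87%, and 11.8% and 9.87%). For SAHA the largest differences were the dim NPC1L1 (-1.80, adjusted p = 0.513), ABCA1 (-1.76, adjusted p = 0.061) and FASN (-0.86, adjusted p = 0.0654), and with array weights 2 genes were called.

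**Figure D4:**
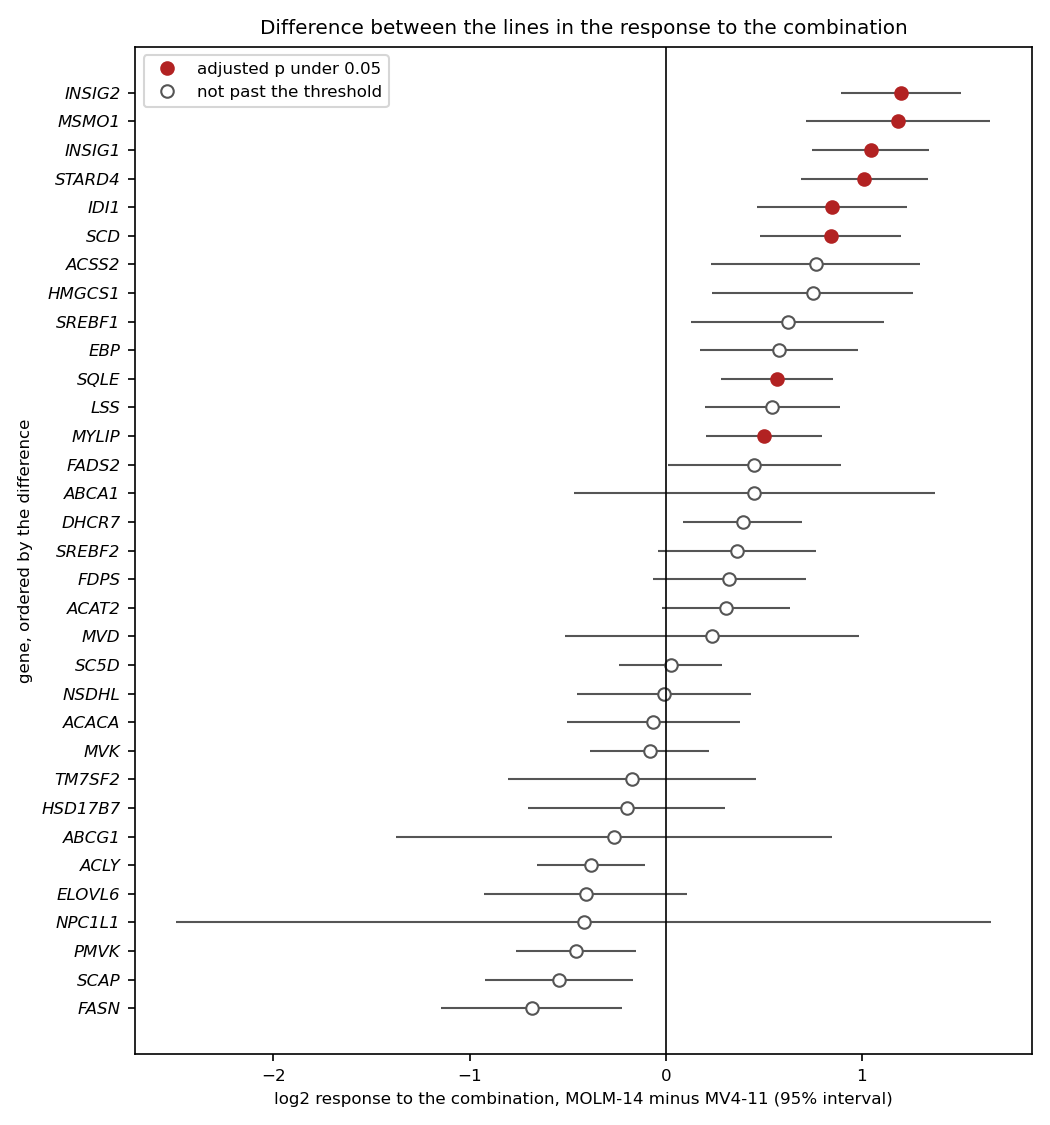
Response to the combination in MOLM-14 minus that in MV4-11 for each of the 33 genes, as a log2 difference with its 95% interval, ordered by size. The 8 filled points with an adjusted p under 0.05 all lie to the right of 0, from 0.50 for MYLIP to 1.20 for INSIG2. Of all probe sets 3.14% were higher and 3.41% lower by this test.

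In DMSO the lines themselves differed for 11 of the 33 genes. MOLM-14 was higher for 6, TM7SF2 (1.40, adjusted p = 0.000391), HMGCS1 (0.74, adjusted p = 0.0102), ELOVL6 (0.73, adjusted p = 0.0117), SC5D (0.59, adjusted p = 0.000352), ACAT2 (0.51, adjusted p = 0.00576) and ACLY (0.40, adjusted p = 0.00889), and lower for 5, SREBF1 (-0.65, adjusted p = 0.0164), MYLIP (-0.60, adjusted p = 0.000772), INSIG2 (-0.59, adjusted p = 0.00119), STARD4 (-0.51, adjusted p = 0.00527) and SCD (-0.41, adjusted p = 0.0361). Over all probe sets 4.96% were higher and 5.18% lower, and among genes above the median signal 13.4% and 10.1%. Both counts were near the latter shares, so the values describe single genes. The median of all probe sets was -0.15 in this comparison and that of the 33 genes 0.10. With arrays centred on their medians, which moved all probe sets up by 0.26, 13 were higher and 0 lower. The other bright probe set of HMGCS1 was at -0.08, that of SC5D at -1.01 and that of SREBF1 at 0.00, so these 3 differences are those of 1 probe set each, and the mean of all SC5D probe sets was at -0.21. HMGCS1, SREBF1, SCD and ELOVL6 lost the call when some single array was left out.

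Other genes of sterol handling, a list of 33 named genes of which 27 had a probe set of their own, were described beside these. With the combination 3 of the 27 fell and 4 rose in MV4-11, with a median of 0.00, and 2 fell and 3 rose in MOLM-14, with a median of 0.06. Among all genes above the median signal 9.01% fell and 11.5% rose in MV4-11 and 6.79% and 7.42% in MOLM-14, so the counts of this list were near the background and the values that follow describe single genes. SPRING1, a gene needed for SREBP activation, rose in both lines with the combination (1.18 and 0.57) and with SAHA alone (0.72 and 0.68). In MV4-11 NR1H3, the LXR alpha gene, fell by 1.14, from a mean signal of 221 ± 12.1 to 101 ± 5.17 (SD, n = 3), LPIN1, a phosphatidate phosphatase, fell by 0.76 and RNF145, an ubiquitin ligase of sterol control, by 0.48. SOAT1, which esterifies cholesterol, rose by 0.62, DHDDS, of the dolichol branch, by 0.60 and SMPDL3A, an LXR target, by 0.73. In MOLM-14 TMEM97, a sterol-regulated membrane protein, fell by 0.93 and SLC25A1, the mitochondrial citrate carrier, by 0.55, while ERLIN2, of the endoplasmic reticulum, rose by 0.69 and NPC2, of lysosomal cholesterol export, by 0.53.

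With single drugs, limma called none of the 27 for ABT-869 in either line. The background in MV4-11 was 1.21% lower and 0.778% higher of the genes above the median signal. In MOLM-14 it was 0.0146% lower and 0.00183% higher of all probe sets, so few calls were to be had. SAHA lowered ACSL1 (-0.62) and raised SPRING1, SOAT1 (0.66) and SMPDL3A (0.82) in MV4-11, and raised SPRING1, ERLIN2 (0.73), NPC2 (0.47), LIPA (0.49) and ME1 (0.91) in MOLM-14, that is 1 lower and 3 higher of 27 in MV4-11, where 2.29% and 3.96% of the genes above the median signal were, and 5 higher in MOLM-14, where 6.67% were. LIPA and NPC2 serve the lysosome, and ME1 makes NADPH. Set against ABT-869, the combination was higher in MOLM-14 for ERLIN2 (0.95), ME1 (0.92), NPC2 (0.57), SMPDL3A (0.57) and LIPA (0.51) and lower for TMEM97 (-0.68). In MV4-11 it was higher for SPRING1 (0.89) and ME1 (0.58), and against SAHA it was lower for LPIN1 (-0.69).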

How the data were processed

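Total RNA of 24 cultures (2 lines, 4 treatments, 3 arrays each) was hybridised to Affymetrix U133 Plus 2.0 arrays. The authors deposited 1 linear signal intensity per probe set and array, already summarised and scaled to a trimmed mean of about 500; which software made them is not stated in any source read for this work. Array intensity has no read depth, and precision is set by 3 arrays a group: the median standard error of a member's difference was 0.143 in MV4-11 and 0.135 in MOLM-14. Of 54675 probe sets, 62 controls were left out. Signals below 1 (0.209% of values) were raised to 1 and log2 was taken, with no further normalization. Probe sets were named from the platform annotation: 41091 named 1 gene, 1801 several and 11721 none.

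Differences were fitted in limma 3.58.1 (R 4.3.3). Each line had a fit of its own on 12 arrays, with contrasts for each drug, the combination, the combination against each drug and the departure from additivity. Differences between the lines came from 1 fit over all 24 arrays. Adjusted p values are Benjamini-Hochberg values over 54613 probe sets. All 36 members could be named. Every array's values are given for the 2 members of each role with the largest combination difference among those called, for members called against a single drug or between the lines, and for SREBF1, SREBF2, INSIG1, SCAP, ABCA1 and ABCG1. Other pathway genes are named where called. The members and lists were chosen with earlier results of these data known. Replicate numbers were not taken to pair the cultures, since not every same-numbered pair of arrays had deviations correlated over 0.1: 1 of 18 pairs did in MV4-11 (-0.190 to 0.184), against 7 of 36 with different numbers, and 6 of 18 in MOLM-14 (-0.063 to 0.328, median 0.064), against 2 of 36 (median -0.020). Simulated data with known changes were used to test the fitting code. Alternatives covered normalization, the floor, dim probe sets, the choice of probe set, array weights, the replicate block, a joint fit and the omission of arrays.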

Additional observations from a re-analysis of the deposited data

Results flagged for a closer look

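The response to the combination differed between the lines, by the test of that difference in the joint limma fit, for 8 of the 33 genes, all higher in MOLM-14, and for 7 of the 27 other sterol genes, 5 higher and 2 lower. Of the genes above the median signal 7.74% were higher and 9.18% lower, so the 2 lower of 27 were near that share. As the MOLM-14 response minus the MV4-11 response on the log2 scale, the values were 0.85 for IDI1, 0.56 for SQLE, 1.18 for MSMO1, 1.04 for INSIG1, 1.20 for INSIG2, 1.01 for STARD4, 0.84 for SCD and 0.50 for MYLIP. Among the other genes they were 0.95 for NR1H3, 0.89 for LPIN1, 0.69 for RNF145, 0.66 for NPC2, 0.60 for GGPS1, -0.60 for SPRING1 and -0.79 for TMEM97. The signals of NR1H3 went from 221 ± 12.1 to 101 ± 5.17 (SD, n = 3) in MV4-11 and from 172 ± 25.3 to 152 ± 29.4 in MOLM-14. Line and FLT3 genotype cannot be told apart with 2 lines.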

How the results depend on the processing

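Counts of the 33 genes called against DMSO in MV4-11 were 3 for ABT-869 as reported, 10 with a floor of 32, 8 without dim probe sets, 1 with the replicate block, 8 in 1 fit over all arrays and 0 to 2 without single arrays. For SAHA they were 1 as reported, 5, 9, 0 and 5 under those settings, 2 with the mean of all probe sets of a gene and 0 to 1 without single arrays. The combination against ABT-869 (14) gave 4 with centred arrays, 7 with the block, 4 without the 4 arrays that stood apart and 6 to 12 without single arrays, and against SAHA (12) it gave 22 with the floor, 23 without dim probe sets, 6 with the block, 22 in the joint fit and 7 to 12. Additivity (0) gave 6 with the floor, 5 without dim probe sets and 5 in the joint fit. In MOLM-14, ABT-869 (0) gave 6, 4 and 2 under those same settings. SAHA (1) gave 7 with centring, 7 with the floor, 7 without dim probe sets, 0 with the block, 5 with the mean of probe sets, 3 in the joint fit, 0 without the 4 arrays and 0 without any single array. The combination (15) gave 9 without the 4 arrays and 5 to 11 without single arrays. Against ABT-869 (6) it gave 10 with the floor, 11 without dim probe sets, 3 with the block, 3 with the mean, 3 without the 4 arrays and 1 to 3, and against SAHA (0) 1 with quantile normalization, 11 with centring, 13 with the floor, 13 without dim probe sets, 2 with the mean and 13 in the joint fit. Between the lines, the ABT-869 response (0) gave 2 without dim probe sets. The SAHA response (0) gave 5 with the floor, 4 without dim probe sets, 1 with the mean, 2 with array weights, 1 without the 4 arrays and 0 to 1. The combination response (8) gave 4 with centring, 16 with the floor, 17 without dim probe sets, 13 with the mean and 5 without the 4 arrays, and DMSO levels (11) 6 with the block and 7 with the mean. The replicate block left 18 for the combination in MV4-11, 13 in MOLM-14 and 7 for its difference between the lines. Averaging all probe sets of a gene turned the sign of ABCA1 with SAHA in MV4-11 (-0.19), FASN with the combination in MOLM-14 (0.24), MVK and FASN against ABT-869 there (0.18 and 1.11) and SC5D between the lines in DMSO (-0.21). The SC5D mean takes in a second probe set above the median signal, and the other means take in probe sets below it. All other called member differences kept their sign under every setting (1024 on the same side of the threshold and 293 no longer past it). The setting without the 4 arrays was chosen after seeing the data. Signals under 32 made up 30.3% of all, and of the 33 genes NPC1L1 had such signals, down to 14.2.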
